A study of Camelus dromedarius with 10 samples.

Results

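IGFBP5, which encodes a secreted binding protein of the insulin-like growth factors (IGFs), was examined alongside IGF1R and INSR, which encode the IGF-1 receptor and the insulin receptor, in RNA sequencing of the supraoptic nucleus (SON) of the dromedary camel. These 3 genes were chosen from 22444 Ensembl gene IDs of the count table by their symbols, with results of the comparison described here already known, so their differences between control and dehydrated camels are a description and not a test. IGFBP5 is the ID ENSCDRG00005016426, IGF1R is ENSCDRG00005019740 and INSR is ENSCDRG00005016879, as the study's supplementary tables pair them, and all 3 were among the 14432 IDs that passed the filter on low counts. IGFBP5 was paired only through a table sorted by the p-value of this same comparison and shortened here, so it could enter only with a small p-value there, while IGF1R and INSR were paired through a table that does not depend on the results. The samples were SONs of male camels, taken from 1 side of the hypothalamus, from 5 control animals with free access to food and water and from 5 animals deprived of water for 20 days (water deprivation, WD). Rostral SON was collected as punches from tissue sections, so each library holds neurones, glia, vessels and connective tissue cells in unknown proportions.

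IGF-1, IGF-2 and insulin signal through related receptor tyrosine kinases at the cell surface. Ligand binding leads to phosphorylation of adaptor proteins, to activation of PI3-kinase and AKT, and to control of FOXO transcription factors and mTOR. IGF-binding proteins hold IGFs in the extracellular space, where they lengthen the life of the ligand and limit or direct its access to IGF1R, and proteases release the ligand by cleaving them. IGFBP5 binds to extracellular matrix and is made by neurones, glia and connective tissue cells, while in the brain both receptors are found on neurones, glia and vessels. The SON itself is known for its magnocellular neurones, whose axons secrete vasopressin and oxytocin in the posterior pituitary. Sequences and positions of these genes on the Camdro2 assembly were not used here. In the RefSeq gene order of another dromedary assembly, mCamDro1.pat, the nearest protein-coding neighbours of IGFBP5 were IGFBP2 and TNP1, those of IGF1R were SYNM and PGPEP1L, and INSR lay next to ARHGEF18.

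Counted read pairs ranged from 1665098 to 7518432 per control library and from 4227685 to 8126641 per WD library. A set of 5 highly abundant IDs, defined by a share over 1% in some library, accounted for 27.7% to 76.1% of these, which left 397495 read pairs for all other genes in control replicate 13 (CON13) and 1106575 in WD replicate 6 (WD6), fewer than in any other library. The sample sheet lists CON2, CON13 and WD6 as duplicated samples, each kept for its better performance over a duplicate that is not among these libraries. Levels are given as CPM (counts divided by library sizes that carry the TMM correction), and 1 read pair was worth 1.196 CPM in CON13, 0.475 CPM in WD6 and at most 0.237 CPM in the remaining libraries. CPM is not corrected for gene length, so levels of different genes were not compared with one another. AVP and OXT, the defining transcripts of magnocellular neurones, were not paired with an ID and the tissue label was not checked with them. The summed level of 8 other neuronal and hypothalamic markers (SIM1, OTP, ARNT2, MYT1L, PEG3, NTRK2, NTRK3 and CHGA) was between 790.8 and 963.6 CPM in control and between 814.3 and 944.6 CPM in WD libraries, and ARNT2 and NTRK2 made up 73.0% of its mean in control and 75.2% in WD libraries.

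IGFBP5 was lower in the SON of WD camels. Its level in the control libraries was 47.4 CPM in CON2, 24.6 CPM in CON3, 25.5 CPM in CON4, 30.3 CPM in CON5 and 33.5 CPM in CON13. In the WD libraries it was 11.9 CPM in WD6, 13.3 CPM in WD7, 17.8 CPM in WD8, 10.2 CPM in WD9 and 13.8 CPM in WD15. The groups did not overlap, since the lowest control library (CON3) lay above the highest WD library (WD8). These levels rest on 28 to 222 read pairs per control library and 25 to 118 per WD library, with the fewest in CON13 and WD6.

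The group means of IGFBP5 were 32.3 ± 9.20 CPM (SD over 5 libraries) in control and 13.4 ± 2.84 CPM (SD, n = 5) in WD camels. The fitted log2 fold change (LFC) of WD over control was -1.26 (standard error 0.23, 95% interval -1.74 to -0.78), a 2.39-fold higher level in control. In edgeR's quasi-likelihood test over all 14432 genes its Benjamini-Hochberg adjusted p was 0.0142, below the threshold of 0.05 that the study used. IGFBP5 was the only 1 of the 3 genes called by this fit and the only 1 whose groups did not overlap. Over all genes tested, 72 were called (0.499%), 39 higher and 33 lower in WD, and 378 (2.62%) had groups that did not overlap. Because the 3 genes were picked with this contrast known, their count is not read against these shares. Among the 33 genes called lower, IGFBP5 ranked 25 by the size of its fall, and by adjusted p it ranked 34 among all genes. In bulk tissue, fewer cells of a type that makes a transcript and less of the transcript per cell cannot be told apart.

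**Figure D1:**
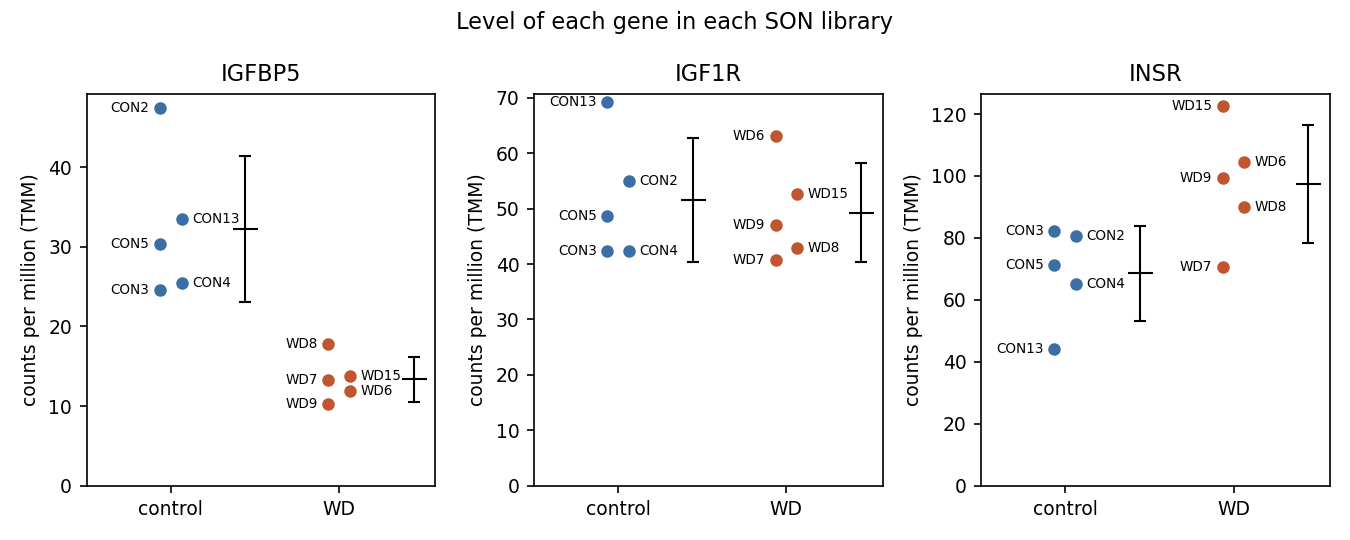
Level of IGFBP5, IGF1R and INSR in CPM (vertical axes, linear, starting at 0) in each of 5 control (blue) and 5 WD (orange) libraries. Each named point is 1 library, and black bars show the group mean ± SD. The IGFBP5 groups are separate, the IGF1R groups overlap, and in INSR WD7 lies within the control range while the other 4 WD libraries lie above it.

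IGF1R, the receptor through which IGF-1 and IGF-2 act, had levels that overlapped between the groups. The control libraries held 55.1 CPM in CON2, 42.3 CPM in CON3, 42.3 CPM in CON4, 48.8 CPM in CON5 and 69.4 CPM in CON13. The WD libraries held 63.1 CPM in WD6, 40.8 CPM in WD7, 42.9 CPM in WD8, 47.0 CPM in WD9 and 52.7 CPM in WD15. The highest value of each group came from its library with the fewest usable read pairs, CON13 with 58 IGF1R read pairs and WD6 with 133. Mean levels were 51.6 ± 11.2 CPM (SD over 5 libraries) in control and 49.3 ± 8.96 CPM (SD, n = 5) in WD camels. The LFC was -0.05 (standard error 0.19) and its adjusted p in edgeR's quasi-likelihood test was 0.968. The 95% interval of the LFC ran from -0.44 to 0.35, so changes of that size in either direction lie within it. The sign of this difference turned with the processing, to 0.094 with scaling to library totals, 0.012 with depth group as a covariate, 0.048 without CON13 and 0.0017 without WD7.

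INSR, the insulin receptor, had a higher mean in WD camels but did not pass the threshold over all genes. Its level was 80.7 CPM in CON2, 82.1 CPM in CON3, 65.1 CPM in CON4, 71.2 CPM in CON5 and 44.2 CPM in CON13. In WD libraries it was 104 CPM in WD6, 70.7 CPM in WD7, 90.0 CPM in WD8, 99.5 CPM in WD9 and 123 CPM in WD15. The groups overlapped through WD7 alone, which lay below 3 of the control libraries, while the other 4 WD libraries lay above every control library. The lowest value, in CON13, rests on 37 read pairs, and the other libraries held 220 to 1151.

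Mean INSR levels were 68.6 ± 15.3 CPM (SD over 5 libraries) in control and 97.5 ± 19.1 CPM (SD, n = 5) in WD camels, a fitted ratio of 1.396. The LFC was 0.48 (standard error 0.19, 95% interval 0.08 to 0.88), with an adjusted p of 0.433 in edgeR's quasi-likelihood test. It was 0.37 without CON13 and 0.34 without both CON13 and WD6, and the adjusted p was above the threshold in all alternatives run.

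The differences were also taken among libraries of like depth. By counts left after the abundant IDs, CON2, CON3, CON13, WD6 and WD15 were the 5 shallower libraries, and they were compared apart from the 5 deeper libraries as a technical split, with no test in groups of 2 and 3. Mean log2 CPM of IGFBP5 in WD minus control was -1.40 in the shallower and -1.05 in the deeper libraries. Its groups were apart in both, which was fixed in advance because they did not overlap over all libraries. For IGF1R the same difference was 0.08 in the shallower and -0.06 in the deeper libraries. For INSR it was 0.77 in the shallower libraries, where the groups did not overlap, and 0.34 in the deeper ones, where they did. The shallower control mean of INSR includes CON13, at 44.2 CPM on 37 read pairs, beside 80.7 CPM in CON2 and 82.1 CPM in CON3. Leaving out CON13 and WD15, the libraries with the shortest fragments, the differences were -1.24 for IGFBP5, 0.03 for IGF1R and 0.28 for INSR.

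The INSR and IGF1R counts of the same library give a ratio that does not depend on the scaling between libraries. It depends on gene length, so it was compared between libraries and not read as an order of the receptors. INSR counts were 1.46 times the IGF1R counts in CON2, 1.94 times in CON3, 1.54 times in CON4, 1.46 times in CON5 and 0.641 times in CON13. In the WD libraries the ratio was 1.65 in WD6, 1.73 in WD7, 2.10 in WD8, 2.12 in WD9 and 2.32 in WD15. CON13 was the only library with fewer INSR than IGF1R counts, and CON3 lay within the WD range. The mean log2 ratio was 0.41 ± 0.61 (SD over 5 libraries) in control and 0.98 ± 0.21 (SD over 5 libraries) in WD camels. Without CON13 the difference between the group means, 0.57 on the log2 scale, was 0.31.

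**Figure D2:**
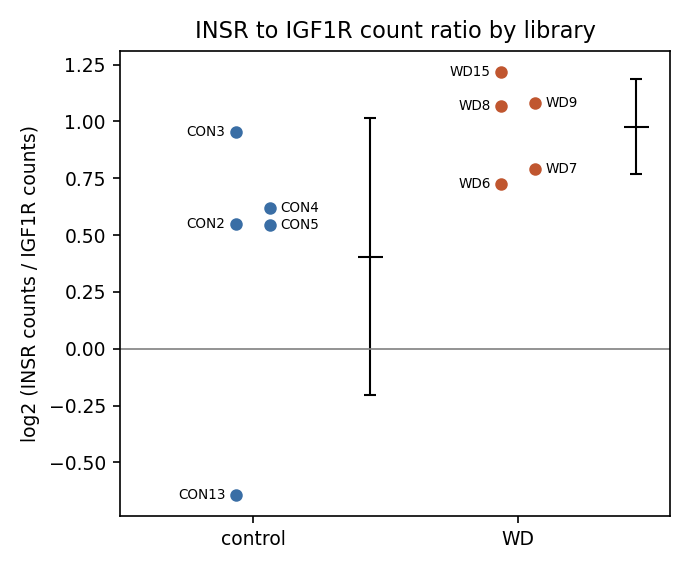
Log2 of the ratio of INSR to IGF1R counts (vertical axis, 0 means equal counts) in each control (blue) and WD (orange) library, with the group mean ± SD in black. The control library CON13 lies at -0.64, and the remaining control libraries lie between 0.54 and 0.95, beside WD libraries between 0.72 and 1.22.

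Within groups, the members varied about as much as other genes of like level. The standard deviation of log2 CPM within groups was 0.34 for IGFBP5, 0.28 for IGF1R and 0.33 for INSR. Among genes within 0.5 of the same mean log2 CPM, 38.9% of 3126 varied less than IGFBP5, 35.6% of 1900 varied less than IGF1R and 58.3% of 1113 varied less than INSR. IGFBP5 could enter only with a small p-value, which favours a small spread, so its place here is not independent of that choice. The highest control library held 1.93 times the IGFBP5 level of the lowest, and the highest WD library 1.75 times that of the lowest. No other ID had counts within 1% of those of a member in every library.

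The genes of the same pathway were taken from a list of 57, ordered by role. Of these, 35 were paired with an ID in a table that does not depend on the results, and 33 of them were tested. None was called in edgeR's quasi-likelihood test, against 0.499% of all genes tested, 4 had an unadjusted p under 0.05, as had 1344 of the 14432 genes tested, and DESeq2's Wald test called none either. In 0 of the 33 were the groups apart, against 2.62% of all genes tested. Their LFCs were above 0 in 19 and below 0 in 14, with a median of 0.10, beside a median of 0.02 and 51.9% above 0 over all genes tested. With scaling to library totals, which moved the median of all genes to 0.16, 24 were above 0 and 9 below, with a median of 0.21, and 10 of the 33 changed sign in at least 1 alternative. A further 7 genes (IGFBP2, IGFBP6, IGFBP7, HTRA1, STC1, IRS4 and GRB10) were, like IGFBP5, paired only through the table sorted by p-value, so they are given by value and enter no count. The remaining genes of the list had no paired ID, among them IGFBP3, IGFBP4, IRS1 and IRS2. Only 3 of the 8 other binding proteins and 2 of the 7 adaptors had an ID, all through that sorted table, so neither role is covered in full.

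Of the ligands, IGF2 passed the filter on low counts and IGF1 and INS did not. IGF1, the ligand of IGF1R made by neurones, microglia and vessels, had 6 read pairs in CON2, 23 in CON3, 6 in CON4, 7 in CON5 and 3 in CON13, and 0 in WD6, 4 in WD7, 8 in WD8, 0 in WD9 and 0 in WD15. A count of 0 allows up to 3 read pairs by counting error alone. Its levels, 0.689 to 5.44 CPM in control and 0 to 1.23 CPM in WD libraries, overlapped. IGF2, a ligand of the same receptor that brain meninges and vessels make, had 3.45 ± 1.21 CPM (SD over 5 libraries) in control and 2.81 ± 1.65 CPM (SD, n = 5) in WD camels, with an LFC of -0.25 (standard error 0.52) and an adjusted p of 0.935 in edgeR's quasi-likelihood test. INS, the insulin gene, had 1 read pair over all control libraries and 3 over all WD libraries, which is at the floor.

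Of the other binding proteins, IGFBP6, which prefers IGF-2, had 10.8 ± 2.77 CPM (SD over 5 libraries) in control and 6.95 ± 0.904 CPM (SD, n = 5) in WD camels, an LFC of -0.59 (standard error 0.26, adjusted p 0.482 in edgeR's quasi-likelihood test). IGFBP7, a matrix protein of vessels with low affinity for IGFs, had 59.5 ± 10.4 CPM (SD over 5 libraries) in control and 84.0 ± 15.5 CPM (SD, n = 5) in WD camels, an LFC of 0.48 (standard error 0.18, adjusted p 0.380). Neither passed the threshold. IGFBP2, the neighbour of IGFBP5 in the gene order, did not pass the filter, with 52 read pairs over the control libraries and 32 over the WD libraries, and its levels overlapped at 1.38 to 7.17 CPM in control and 0.383 to 1.42 CPM in WD libraries.

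HTRA1, a secreted serine protease known to cleave IGFBP5, had an LFC of 0.39 (adjusted p 0.572 in edgeR's quasi-likelihood test). Among the proteases paired independently of the results, C1R, a complement protease whose partner C1S cleaves IGFBP5, had the largest rise, with an LFC of 0.55 (adjusted p 0.471). CTSD, a lysosomal protease, had the only value below 0, -0.03, and changed sign in 5 of 21 alternatives. STC1, an inhibitor of the protease PAPPA that cleaves IGF-binding proteins, did not pass the filter, with levels of 0.293 to 4.78 CPM in control and 0.417 to 1.28 CPM in WD libraries, which overlapped.

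INSRR, the third receptor of the insulin receptor family, had 5.09 ± 5.36 CPM (SD over 5 libraries) in control and 1.86 ± 0.956 CPM (SD, n = 5) in WD camels, with an LFC of -1.16 (standard error 0.68, adjusted p 0.646 in edgeR's quasi-likelihood test). Its control spread came from CON13, at 14.4 CPM, the other control libraries lying between 0.689 and 4.06 CPM, and without CON13 the LFC was -0.57. Among the other receptors and receptor-level enzymes, 2 had LFCs above 0 and 3 below. IDE, an enzyme that degrades insulin, was at 0.46 (adjusted p 0.577), and PTPRF, a receptor-type phosphatase that acts on the insulin receptor, at -0.47.

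Below the receptors, 12 of 14 PI3-kinase and lipid phosphatase genes had LFCs above 0, with a median of 0.26 and none called. PIK3CD, a catalytic subunit best known from leukocytes, had the largest, with 13.6 CPM in control and 25.6 CPM in WD camels, an LFC of 0.83 (standard error 0.27, adjusted p 0.268 in edgeR's quasi-likelihood test). The lowest LFC of this group was -0.26, in PIK3R2, a regulatory subunit. Beside PIK3CD, the LFCs of all 6 microglial markers (CSF1R, ITGAM, ITGB2, SPI1, IKZF1 and PTPRC) were above 0, with a median of 0.80. None changed sign in an alternative, but the lowest LFC over the alternatives was 0.07 for SPI1, 0.28 for CSF1R and 0.59 for PTPRC. Their summed level was 187.5 to 319.8 CPM in control and 233.5 to 735.3 CPM in WD libraries. The WD spread was wide, with ITGAM at 47.2 to 203.8 CPM against 40.2 to 83.9 CPM in control. The part of these cells in the PI3-kinase values was not tested. Among 10 kinases and transcription factors, 3 had LFCs above 0 and 7 below, with a median of -0.06, but with library totals 7 were above 0 and 3 below, and 7 changed sign in at least 1 alternative. FOXO6, a FOXO factor of neurones, was lowest at -0.93 (adjusted p 0.313), with 19.5 ± 10.3 CPM (SD over 5 libraries) in control and 9.47 ± 3.19 CPM (SD, n = 5) in WD camels, and FOXO1 highest at 0.20. Of the adaptors, IRS4, an insulin receptor substrate of the hypothalamus, had an LFC of -1.32 (standard error 0.43, adjusted p 0.266), with 22.0 ± 11.6 CPM (SD over 5 libraries) in control and 8.53 ± 6.62 CPM (SD, n = 5) in WD camels, and GRB10, an inhibitory adaptor of both receptors, an LFC of 0.65 (adjusted p 0.364). With depth group as a covariate IRS4 (adjusted p 0.00887) and PIK3CD (adjusted p 0.0488) passed the threshold of edgeR's test.

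**Figure D3:**
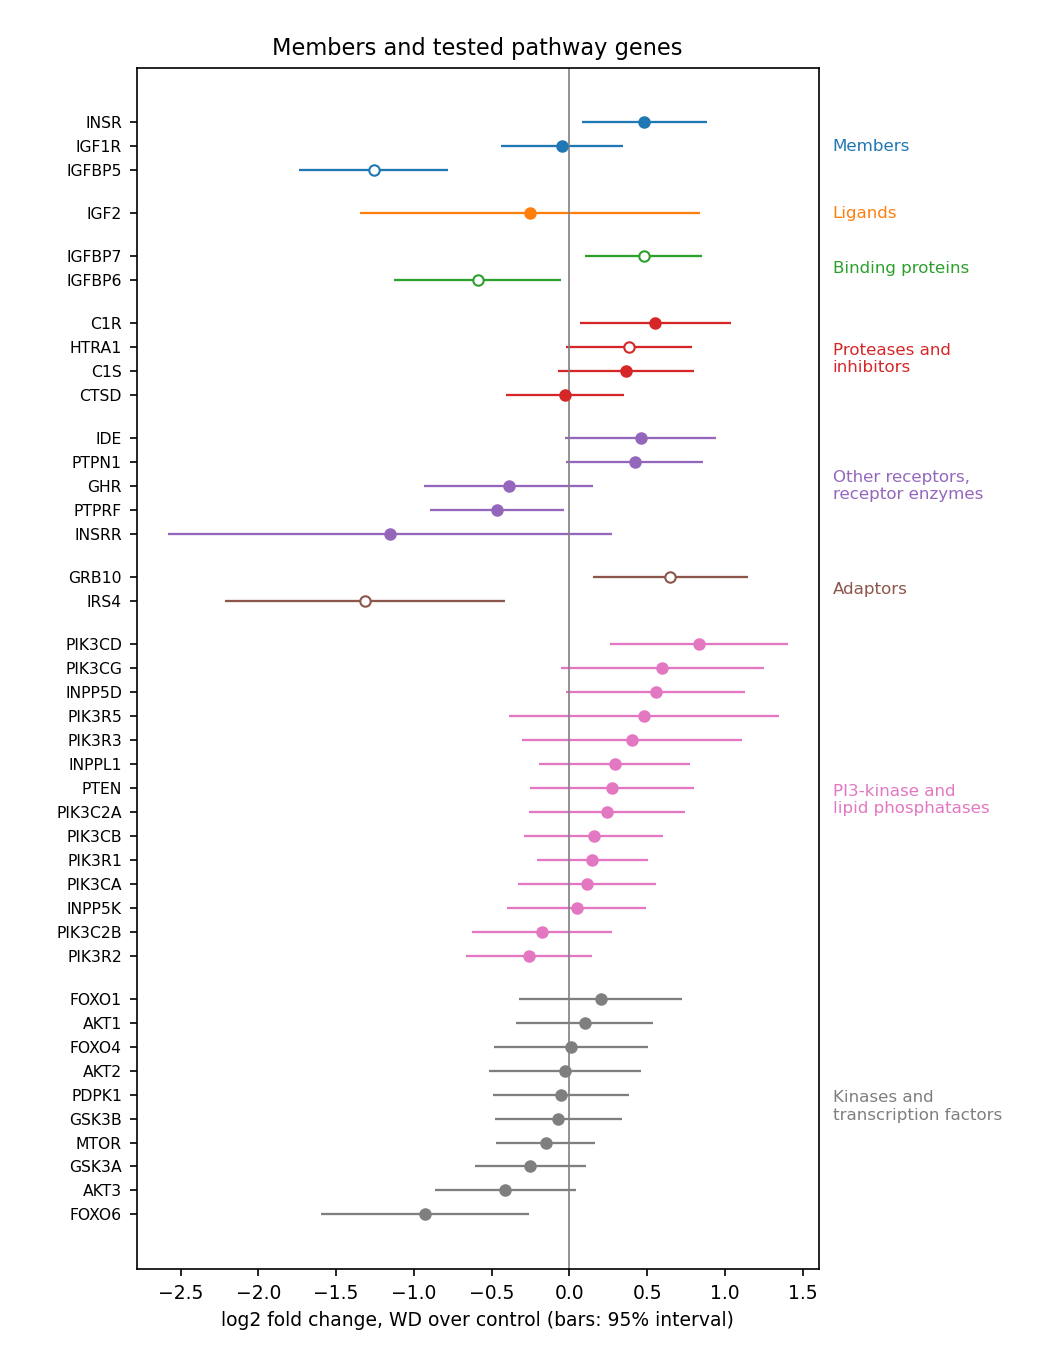
Log2 fold change of WD over control (horizontal axis) with its 95% interval for the members and each tested gene of the IGF and insulin pathway, grouped and coloured by role. Open points are genes paired only through the table sorted by p-value, and the vertical line marks no change. IGFBP5 lies at -1.26 with an interval that ends at -0.78, IGF1R lies near 0, and 12 of 14 PI3-kinase and phosphatase genes lie to the right of 0.

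COL1A1, a chain of type I collagen made by connective tissue cells, was lower in WD camels as well. Of 14 fibroblast and meningeal markers 8 were tested, 7 of them with LFCs below 0 and with a median of -0.41, but 5 were below 0 with library totals, and DDR2 (-0.02) and ITGA11 (-0.01), counted among the 7, changed sign in 5 and 7 of 21 alternatives. The summed level of the 14 was 122.5 to 169.8 CPM in control and 80.6 to 132.9 CPM in WD libraries. COL1A1 and COL3A1 made up 58.2% of the mean sum in control and 44.5% in WD libraries, and the remaining markers summed to means of 62.7 and 56.5 CPM. COL1A1 was called lower, with 45.3 ± 8.33 CPM (SD over 5 libraries) in control and 22.3 ± 5.36 CPM (SD, n = 5) in WD camels, an LFC of -1.04 and an adjusted p of 0.0239 in edgeR's quasi-likelihood test. Its groups were apart by little, 30.5 CPM in CON3 against 30.4 CPM in WD6, and its LFC lay between -1.17 and -0.92 in all 21 alternatives, while the call was lost in 8 of the 10 fits that left out 1 library (all but those without CON3 and without WD6) and with library totals. COL3A1, the type III collagen chain, had groups that did not overlap, with 41.9 ± 6.42 CPM (SD, n = 5) against 23.0 ± 5.84 CPM (SD, n = 5), an LFC of -0.86 and an adjusted p of 0.0857, above the threshold, which it passed with DESeq2's Wald test and with depth group as a covariate. Of the defining factors of these cells, PRRX1 had an LFC of 0.36 (adjusted p 0.888 in edgeR's quasi-likelihood test), the only value above 0. It changed sign in 2 of 20 alternatives, between -0.33 and 0.60. TWIST1 had 11 read pairs over the control and 33 over the WD libraries, and TWIST2 had 2 and 0. The part of these cells in the IGFBP5 level was not tested.

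**Figure D4:**
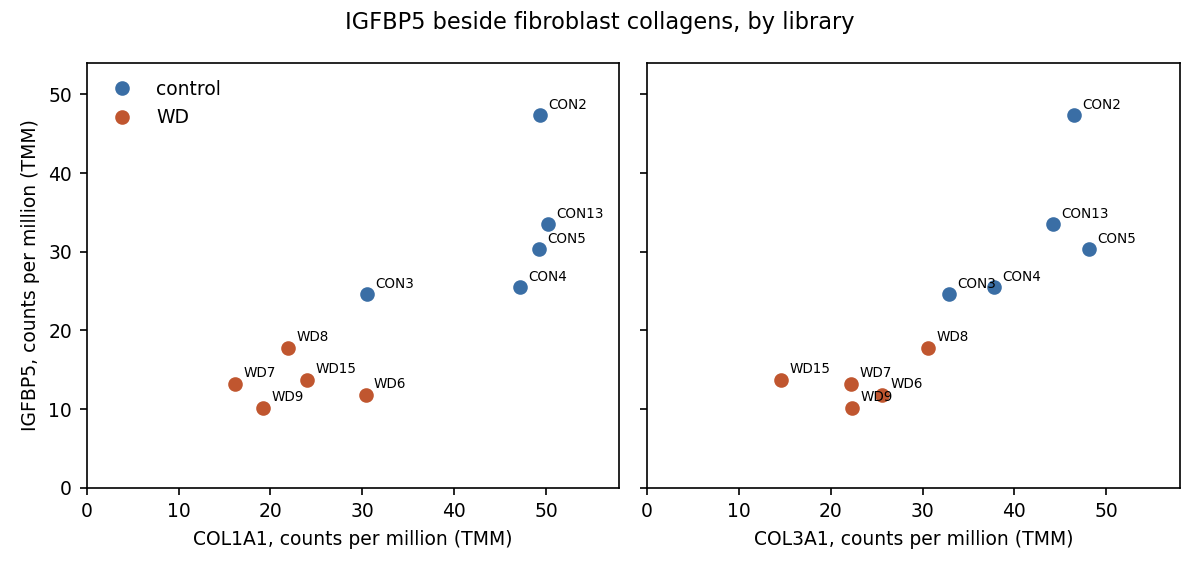
Level of IGFBP5 (vertical axes) against that of COL1A1 (left) and COL3A1 (right), all in CPM, with 1 named point per control (blue) or WD (orange) library. Control libraries lie at 24.6 CPM of IGFBP5 or more and WD libraries at 17.8 CPM or less, and within groups the order of the libraries differs in part, since CON3 is the control library lowest in all 3 genes while WD9, the lowest WD library in IGFBP5, is lowest in neither collagen.

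Of the remaining markers, MYT1L, a neuronal transcription factor, was the only 1 with groups apart, for 1 of its 2 IDs, at an LFC of -0.73 (adjusted p 0.0963 in edgeR's quasi-likelihood test), and the groups of its other ID overlapped at an LFC of -0.19 (adjusted p 0.941). OTP, a transcription factor of hypothalamic neurones, had 39.5 CPM in control and 25.7 CPM in WD camels (LFC -0.58, unadjusted p 0.0255, adjusted p 0.454), and its groups overlapped. The summed levels of markers in control and WD libraries were 55.8 to 82.5 and 56.3 to 82.1 CPM for astrocytes, 182.0 to 414.3 and 176.5 to 304.7 CPM for oligodendrocytes and their precursors, 198.7 to 313.3 and 255.2 to 417.5 CPM for endothelial cells, and 84.1 to 94.5 and 63.1 to 87.3 CPM for mural cells. Markers of other hypothalamic neurones (TRH, CRH, VIP, HCRT and PMCH) summed to 10.8 to 41.4 CPM in control and 6.46 to 23.7 CPM in WD libraries. None of these markers was called by edgeR's quasi-likelihood test, and the ranges of their sums overlapped between the groups. HEYL, a Notch target of mural cells, had 22.2 CPM in control and 10.3 CPM in WD camels (LFC -1.16, adjusted p 0.104) and was called by DESeq2's Wald test and with depth group as a covariate, and the microglial marker PTPRC (LFC 0.90, adjusted p 0.229) was called with depth group as a covariate.

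Levels of the members within groups were then set against the summed level of each of the 8 marker lists and against each other, over the 10 libraries after the group means were subtracted, which leaves out the contrast that chose the genes. In 27 such relations, none passed a two-sided permutation test within groups after Benjamini-Hochberg adjustment, and 2 had an unadjusted p under 0.05 for Pearson's r. IGFBP5 ran against the summed neuronal and hypothalamic markers, with Pearson's r of -0.78 (permutation p 0.0264, adjusted 0.458) and Spearman's rho of -0.77 (permutation p 0.0199). Without the libraries farthest from the median, CON2 and WD15, r was -0.80. Most of this sum is ARNT2 and NTRK2, and which cells made those transcripts was not tested. IGF1R ran with the fibroblast and meningeal markers, with r of 0.69 (permutation p 0.0339, adjusted 0.458) and rho of 0.61 (permutation p 0.0514), and r was 0.49 without WD6 and WD7. For IGFBP5 and the oligodendrocyte markers r was 0.65 (permutation p 0.0765, adjusted 0.534) and rho 0.50 (permutation p 0.175), and r was 0.20 without CON2 and CON4. For IGFBP5 and the microglial markers r was 0.53 (permutation p 0.0974, adjusted 0.534) and rho 0.71 (permutation p 0.0344), and r was 0.62 without CON2 and WD15. For IGFBP5 and the endothelial markers r was 0.52 (permutation p 0.135, adjusted 0.534) and rho 0.53 (permutation p 0.146), and r was 0.51 without CON3 and WD7. For IGFBP5 and the fibroblast and meningeal markers r was 0.46 (permutation p 0.189, adjusted 0.534) and rho 0.45 (permutation p 0.214), and r was 0.80 without WD6 and WD7. None of these passed the adjustment. Among the members themselves r was 0.23 (permutation p 0.560) for IGFBP5 and IGF1R, -0.05 (permutation p 0.892) for IGFBP5 and INSR, and -0.13 (permutation p 0.751) for IGF1R and INSR. Without the libraries farthest from the median these were 0.47 (without CON13 and WD6), 0.07 and 0.47 (both without CON13 and WD7). Without the shallowest libraries, CON13 and WD6, r of IGF1R and INSR was 0.69. The sign of this r thus turned in both sets that left out CON13, and rho over all 10 libraries was 0.05.

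The genes most like each member were ranked by Pearson's r of log2 CPM over the same 10 libraries with group means subtracted, among all genes tested, and are named where they have a symbol. These libraries share their depth profile, and with so many genes high values of r arise readily, so the ranking is a description. For IGFBP5 they were CDK19, a kinase of the Mediator complex (r 0.90, rank 3), KLK6, a secreted serine protease of oligodendrocytes (r 0.86, rank 9), ZNF580 (r 0.85, rank 16), ANXA5, a phospholipid-binding annexin (r 0.82, rank 26), and USF3 (r 0.81, rank 29). For IGF1R they were WDR24, a subunit of a complex that controls mTORC1 (r 0.97, rank 1), CYP2D6, a cytochrome P450 (r 0.96, rank 6), ADAM19, a metalloprotease (r 0.95, rank 10), FOSB, an AP-1 factor (r 0.95, rank 12), and GMEB1 (r 0.94, rank 14). For INSR they were LRP4, a receptor of the LDL receptor family (r 0.93, rank 7), EFNA1, an ephrin (r 0.91, rank 12), PIK3CD (r 0.91, rank 14), the kinase VRK2 (r 0.90, rank 15) and KLF3, a repressor of transcription (r 0.90, rank 18). These sets were not stable, since without CON13 and WD6 the sets of 5 shared 2 genes for IGFBP5, 1 for IGF1R and 0 for INSR.

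Each member was refitted under 21 alternatives. The LFC of IGFBP5 was between -1.41 and -1.08 in all of them, and edgeR or DESeq2 called it in each of them except 1, scaling to library totals. That of INSR was between 0.34 and 0.57 and was called in none. That of IGF1R was between -0.14 and 0.09.

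**Figure D5:**
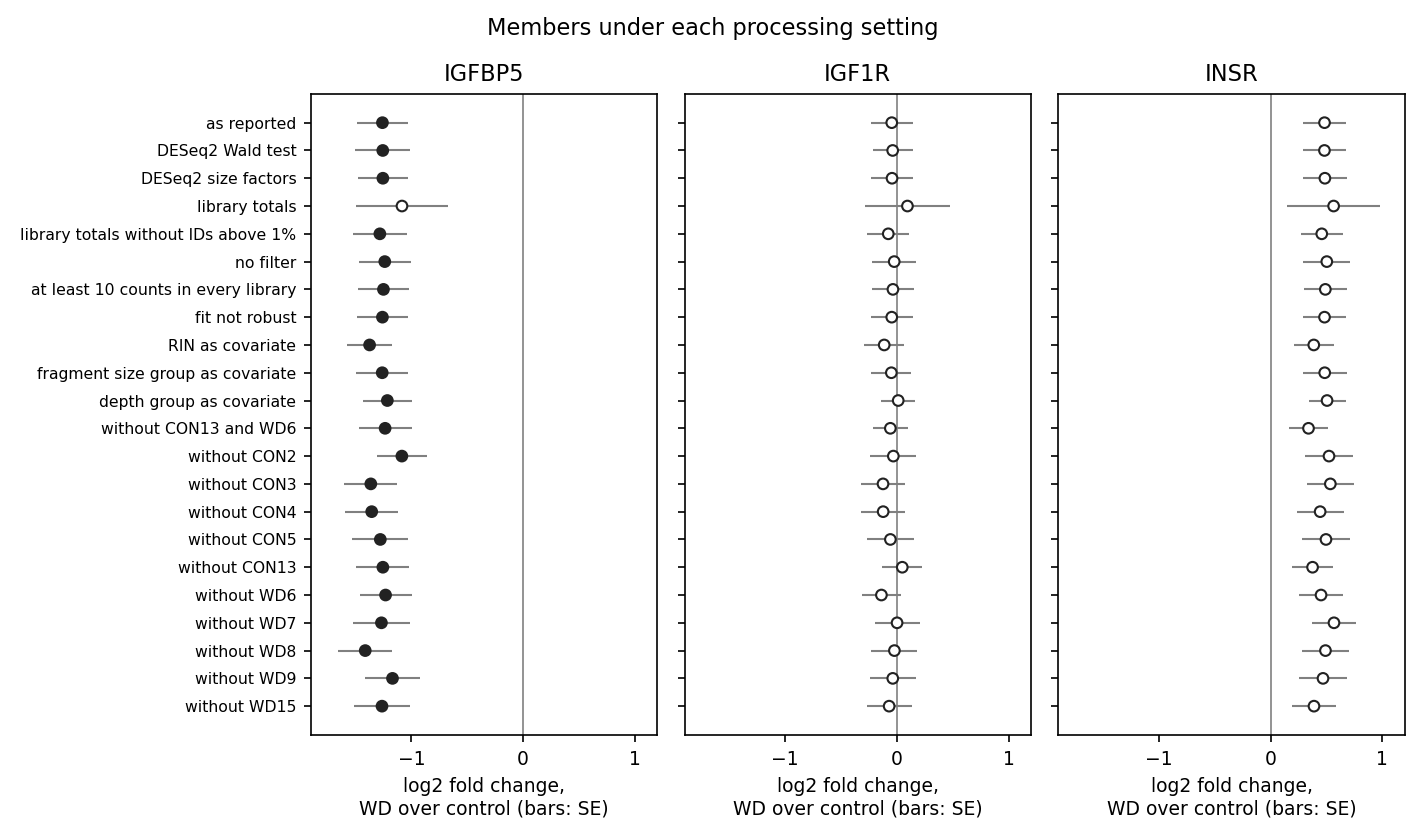
Log2 fold change of WD over control (horizontal axes, bars show the standard error) for IGFBP5, IGF1R and INSR, as reported (top row) and under each processing alternative. Filled points passed an adjusted p of 0.05 and open points did not. IGFBP5 is filled in every row but library totals (-1.08), IGF1R lies on both sides of 0, and INSR is open throughout at 0.34 to 0.57.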

How the data were processed

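RNA of rostral SON from 5 control and 5 WD male camels was sequenced as paired ends from stranded, rRNA-depleted libraries. Read files were first merged by the authors, who then removed adaptors with BBDuk, aligned the reads to Camdro2 with STAR and counted read pairs per gene with FeatureCounts. They deposited whole-number counts per gene without normalisation or pooling. The annotation release, strand setting and treatment of shared read pairs are not given in the sources used here, so overlapping genes are uncertain. A deposited table of normalised values was not used.

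Groups follow the labels. The labels give 5 libraries in each group, and the study gives 5 camels for each condition. Within each group, all pairs of libraries differed beyond counting error (a chi-square of 8.03 or more for each degree of freedom). Symbols were taken from the study's supplementary tables (4316 IDs). The members and lists were chosen with earlier results of these data known. The genes named are the members, the ligands, the receptors of the insulin receptor family, the binding proteins with an ID, pathway and marker genes that were called or had groups apart, the largest rise and fall of each pathway list, and the 5 genes most like each member. HTRA1, STC1, PTPRF, OTP, HEYL, PTPRC, PRRX1, TWIST1, TWIST2, DDR2 and ITGA11 fall outside this rule and were named after their values were seen.

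R 4.3.3 with edgeR 4.0.16 was used for the quasi-likelihood F test (robust fit, TMM normalisation, filterByExpr by group, threshold of 0.05 on the Benjamini-Hochberg adjusted p over 14432 genes). The biological coefficient of variation was 0.285. Logarithms of CPM and of count ratios used a prior count of 0.5. DESeq2 1.42.0, other scalings and filters, RNA integrity, fragment size and depth as covariates, and left-out libraries were alternatives. Relations to marker lists were added after the data were seen and used 100000 resamples in Python 3.11.15 with numpy 2.4.6 and pandas 2.3.3. Figures used matplotlib 3.10.9. Limits given for counts of 0 (3 read pairs) cover counting error only. The study's qRT-PCR and rehydrated camels were not analysed here.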

Additional observations from a re-analysis of the deposited data

Results flagged for a closer look

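In 32 groups of 5 libraries checked, 5 had 1 library far from the others by Dixon's criterion, which chance gives in about 1 in 20 groups. CON13, the control library with the fewest usable read pairs, was lowest in 3 of them. IGFBP7 was at 41.9 CPM in CON13 and at 60.6 to 69.2 CPM in the other control libraries. HTRA1 was also at 41.9 CPM in CON13, against 66.8 to 76.3 CPM. The log2 ratio of INSR to IGF1R was -0.64 in CON13, against 0.54 to 0.95. IGF2 was at 1.38 CPM in CON4, against 3.59 to 4.50 CPM in the other control libraries. COL1A1 was at 30.5 CPM in CON3, against 47.2 to 50.2 CPM. IGFBP5 itself and IGF1R and INSR as single genes had no such library in either group.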

How the results depend on the processing

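The count of called genes, 72 (39 higher, 33 lower), was 209 with DESeq2's Wald test, 10 with library totals and 224 with depth group as a covariate, and 40 (without CON3) to 102 (without WD6) when 1 library was left out, with 42 without CON5. With RNA integrity as a covariate it was 104, 70 higher and 34 lower. IGFBP5 had an LFC of -1.08 with library totals and was no longer called (adjusted p 0.9999 in edgeR's quasi-likelihood test), a scaling that moved the median LFC of all genes from 0.02 to 0.16. With 1 library left out it stayed called in all 10 fits, at -1.41 to -1.08 and adjusted p of 0.0132 to 0.0489, the highest without CON2. The LFC of IGF1R turned to 0.094 with library totals and 0.012 with depth group as a covariate, and ranged from -0.14 (without WD6) to 0.048 (without CON13) with 1 library left out, turning also without WD7 (0.0017). INSR kept its direction and its side of the threshold in all 21 alternatives, with adjusted p of 0.151 or more. The difference in the log2 ratio of INSR to IGF1R, 0.57, was 0.56 with a pseudocount of 5 and 0.31 (without CON13) to 0.71 with 1 library left out. The cause of these shifts was not tested. No paired analysis was possible because the control and WD libraries come from different camels. Precision is lowest in CON13 and WD6, where a read pair weighs most.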
